A study of Mus musculus with 2 samples.

Results

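Autophagy is the route by which a cell wraps part of its own cytoplasm, a damaged organelle or an engulfed microbe in a double membrane and delivers it to the lysosome. A kinase complex starts the process, a lipid kinase complex marks the membrane, and lipid transfer proteins enlarge it. A ubiquitin-like conjugation system attaches proteins of the ATG8 family (LC3 and GABARAP) to that membrane, and cargo receptors link the cargo to them. In macrophages the pathway is known for degrading bacteria and for limiting inflammasome activity, and Sqstm1, its best known cargo receptor, is also a scaffold of NF-kappaB and NRF2 signalling.

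The genes described here are 34 mouse genes of this machinery, given as a list of symbols. All 34 were matched by symbol to a single Ensembl gene each, among the 34745 genes listed. They were measured by RNA sequencing in 2 libraries of peritoneal macrophages from C57BL/6 mice, 1 labelled Kdm2b-/- and 1 labelled wild type. The cells of both libraries were taken 4 days after thioglycollate, an irritant that draws macrophages into the peritoneum, and both were exposed to lipopolysaccharide (LPS, a bacterial cell wall component) at 100 ng/ml. The labels give the exposure as 4 h in one field and 3 h in another. The sources used here do not say how Kdm2b was deleted, in which cells, or how many mice were pooled. KDM2B is a histone demethylase that binds DNA at unmethylated CpG sites.

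There was 1 library per group, so no difference could be set against a spread between animals and no test across samples exists. Values are FPKM (fragments per kilobase of transcript, scaled to the number of mapped fragments) and are comparable between genes, since they are scaled to length. Differences are log2 ratios of the knockout-labelled library over wild type, computed from FPKM + 1 unless stated otherwise. This scale understates the differences of genes with low values. Ratios on FPKM alone carry a 95% interval for counting error only, from estimated fragment numbers. Kdm2b itself stood at 0.326 FPKM in the knockout-labelled library and 0.205 FPKM in wild type, with an interval of the log2 ratio from -0.05 to 1.38. The value was thus not lower in the knockout-labelled library, although a value over the whole gene cannot show a deletion of part of it. Every direction below is that of the knockout-labelled library.

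The estimated depth was 26800000 fragments in the knockout-labelled library and 27300000 in wild type. Of 10 macrophage markers, 9 had a mean of at least 1 FPKM, with a median log2 ratio of 0.03, 5 above 0 and 4 below. They spread from -0.33 (Cd14) to 0.35 (Adgre1 and Lyz2), with Mertk at 0.29. Cd68 stood at 1753 FPKM in the knockout-labelled library and 1722 FPKM in wild type. None of 8 T and NK cell markers, 8 neutrophil markers or 7 dendritic cell markers reached a mean of 1 FPKM. Cd3d, Cd3e, Cd3g, Ly6g and Mpo were at 0 in both libraries. Other cells were present: all 12 mesothelial and stromal markers reached a mean of 1 FPKM. Their summed levels were 409 FPKM in the knockout-labelled library and 357 FPKM in wild type, with a median log2 ratio of 0.40. Of the 12, 8 lay above 0 and 4 below, from Col1a1 at 15.98 and 3.63 FPKM to Msln at 2.77 and 4.32 FPKM. The 8 B cell markers summed to 8.44 and 32.6 FPKM, and 5 of them had a mean under 1 FPKM. The other 3 were Igkc at 1.47 and 18.9 FPKM, Ighm at 0.992 and 6.92 FPKM, and Cd22 at 5.57 and 5.32 FPKM. The autophagy genes are active in all of these cell types, and the part of the cell mixture in the values below was not tested. In such bulk samples fewer cells of a type and less RNA per cell cannot be told apart.

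The autophagy genes were close between the libraries, and 1 of them passed 1.5-fold on the FPKM + 1 scale. This was Sqstm1, 1.61-fold higher in the knockout-labelled library, and none of the other 33 reached 1.5-fold on that scale. On FPKM alone it was 1.62-fold higher, and Ulk1 (1.93-fold), Atg9a (1.85-fold) and Atg16l2 (1.63-fold) also passed 1.5-fold, each from few fragments (62 to 148). GABARAP-type ATG8 genes and the conjugating enzyme gene Atg3 were slightly lower as deposited. The initiation kinase and PI3-kinase groups had medians of 0.15 and 0.12 over their members past a floor of a mean of 1 FPKM, near that of all genes. Of the 34, 28 passed this floor. Of these 28, 0 lay above a 2-fold threshold and 0 below its inverse. Of the 9039 genes past that floor, 0.863% were higher and 1.02% lower by 2-fold, or 1.88% in either direction. At 1.5-fold, 1 member was higher and 0 were lower, where 4.70% of all genes were higher and 2.80% lower, or 7.50% in either direction.

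The 28 members past the floor had a median log2 ratio of 0.04, against 0.10 over all genes past it. Of these members 19 lay above 0 and 9 below. For all genes 63.2% lay above 0 and 36.8% below. With the knockout-labelled library scaled by 0.915, so that the median of all genes was 0, 11 of the same 28 lay above 0 and 17 below. Over all 34, which includes 6 with low values, 25 lay above 0 and 9 below. The counting interval of the log2 ratio lay above 0 for 9 of the 28 and below 0 for 6, where it did so for 43.0% and 20.3% of all genes.

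The machinery spanned a wide range of levels. In each library 2 members, Gabarap and Sqstm1, exceeded 100 FPKM, and 9 lay between 10 and 100 FPKM. Between 1 and 10 FPKM lay 19 members in the knockout-labelled library and 15 in wild type, and under 1 FPKM lay 4 and 8. The median member stood at 4.10 FPKM in the knockout-labelled library and 4.11 FPKM in wild type. The order of the levels was nearly the same in both (Spearman's rho 0.99 over the 34 genes, which are not independent samples).

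**Figure D1:**
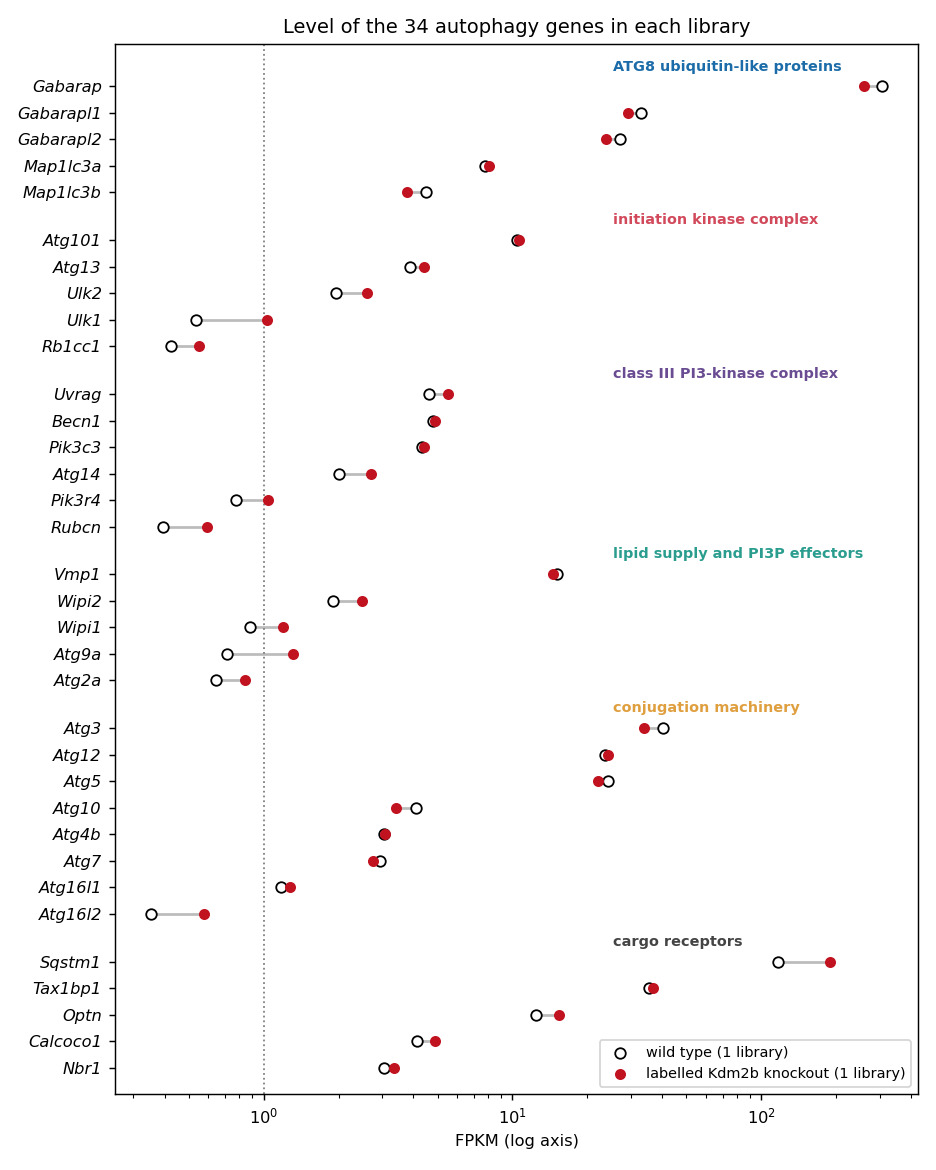
FPKM of each of the 34 autophagy genes on a log axis, grouped by role, with filled points for the knockout-labelled library and open points for wild type (1 library each, no error). Sqstm1 stands at 188 and 116 FPKM and Gabarap at 259 and 305 FPKM, and most other pairs nearly coincide; the dotted line marks 1 FPKM.

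Among the cargo receptors, which bind cargo (in many cases ubiquitinated) on one side and ATG8 proteins on the other, Sqstm1 held the largest difference. Sqstm1 (p62; ENSMUSG00000015837, chromosome 11, 50199366 to 50210827, GRCm38, minus strand) stood at 188 FPKM in the knockout-labelled library and 116 FPKM in wild type. Its log2 ratio was 0.69, and counting error alone gave it a range of 0.66 to 0.73 (about 13500 and 8480 fragments). Of all genes past the floor, 2.57% had a ratio as high or higher. Sqstm1 is singled out here as the member with the highest ratio, so this share gives its rank and tests nothing. Among the 780 genes with a mean between 50 and 500 FPKM, a range chosen after the values were seen, 10 including Sqstm1 did so. The log2 ratio stood at 0.65 with the trend in transcript length and GC content removed, a step that kept the median of all genes at 0.10. It was 0.56 with the median of all genes scaled to 0 and 0.55 with equal upper quartiles, both just under 1.5-fold.

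The upstream sequence of Sqstm1 is shown beside that of Gabarapl2, an ATG8 gene with a slightly lower value in the knockout-labelled library, because KDM2B binds CpG sites. Both are the 250 bases before the RefSeq start (GRCm38.p6), written 5′ to 3′ on the strand of the gene, with each CpG in capitals. Sqstm1 lies at chr11:50210821-50211070 on the minus strand, and its last 7 bases fall inside the longest GENCODE gene model. Gabarapl2 lies at chr8:111940453-111940702 on the plus strand.
Sqstm1: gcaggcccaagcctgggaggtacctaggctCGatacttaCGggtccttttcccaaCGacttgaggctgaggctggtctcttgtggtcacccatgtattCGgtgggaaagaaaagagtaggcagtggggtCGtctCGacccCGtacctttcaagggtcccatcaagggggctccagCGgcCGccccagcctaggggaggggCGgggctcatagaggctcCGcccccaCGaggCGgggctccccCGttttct
Gabarapl2: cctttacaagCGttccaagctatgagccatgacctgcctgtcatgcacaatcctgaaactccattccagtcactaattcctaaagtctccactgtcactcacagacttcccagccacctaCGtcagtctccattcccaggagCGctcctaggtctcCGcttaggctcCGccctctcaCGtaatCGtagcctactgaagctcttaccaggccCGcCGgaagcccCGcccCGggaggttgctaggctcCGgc

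Sqstm1 has 14 CpGs in this window and a GC content of 63.2%, and Gabarapl2 has 12 CpGs and 57.2%. Windows were found for 28 of the 34 members, 33 windows in all, with a median of 16 CpGs, from 1 to 43. The median was also 16 over the 8786 windows of genes past the floor, and 6 over all 32851 windows. No window was found for Map1lc3a, Rb1cc1, Becn1, Pik3c3, Atg12 and Atg16l1. The E-box CACGTG, the core of sites bound by the autophagy and lysosome regulators of the TFEB family, was searched on both strands. It was present in 4 member windows (Atg3, Atg5, Atg7 and Rubcn), or 12.1%, against 8.65% of windows of genes past the floor. The letters TGACNNNGC, the core of sites bound by NRF2, were in 6 member windows, of which 3 belong to Vmp1 and the others to Atg13, Tax1bp1 and Ulk2. This was 18.2%, against 12.0% of windows of genes past the floor. Neither motif was present in these 250 bases of Sqstm1, which says nothing of sites elsewhere.

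The other 4 cargo receptors differed less than Sqstm1. Tax1bp1, which clears protein aggregates and binds the A20 complex, stood at 36.6 FPKM in the knockout-labelled library and 35.5 FPKM in wild type (log2 ratio 0.04). Optn, optineurin, a receptor for bacteria and mitochondria, stood at 15.4 and 12.5 FPKM (0.28). Calcoco1 stood at 4.87 and 4.15 FPKM (0.19). Nbr1, a partner of Sqstm1 in forming cargo condensates, stood at 3.35 and 3.06 FPKM (0.10). All 5 were above 0 as deposited, but Tax1bp1 turned to -0.08 with the median of all genes scaled to 0 and Nbr1 to -0.01 with equal upper quartiles. Counting intervals excluded 0 for Sqstm1, Optn and Calcoco1, but that of Calcoco1 held 0 (-0.06 to 0.52) with the median transcript length.

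Within the receptor group, the share of Sqstm1 was larger in the knockout-labelled library. It made up 75.8% of the summed receptor FPKM there and 67.9% in wild type. A ratio of this kind within a library is free of the scaling between libraries, but not of the trend with length and GC content. With that trend removed, the log2 ratio between libraries was 0.65 for Sqstm1, -0.01 for Gabarap and 0.02 for Nbr1. The median of all genes was 0.10. Set against Gabarap, the most abundant ATG8 gene, Sqstm1 stood at a ratio of 0.727 in the knockout-labelled library and 0.381 in wild type. Set against Nbr1 the ratios were 56.3 and 38.1.

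The ATG8 genes encode the ubiquitin-like proteins that are joined to lipid on the growing membrane, and 4 of the 5 were slightly lower in the knockout-labelled library. Gabarap (ENSMUSG00000018567, chromosome 11, 69991143 to 69994951, plus strand) stood at 259 FPKM there and 305 FPKM in wild type (log2 ratio -0.23, counting interval -0.28 to -0.20). Gabarapl1 stood at 29.1 and 32.9 FPKM (-0.17). Gabarapl2 stood at 23.8 and 27.0 FPKM (-0.17). The 3 GABARAP-type genes thus had nearly equal ratios at very different levels.

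Of the LC3 genes, Map1lc3b, whose protein is the usual marker of autophagosomes, stood at 3.79 FPKM in the knockout-labelled library and 4.49 FPKM in wild type (-0.20). Map1lc3a stood at 8.03 and 7.74 FPKM (0.05, counting interval -0.21 to 0.32). By transcript level Gabarap was the main ATG8 gene of these cells, at 80.0% and 80.9% of the summed ATG8 FPKM. Map1lc3b made up 1.17% and 1.19%. As a group the ATG8 genes summed to 324 FPKM in the knockout-labelled library and 377 FPKM in wild type. With the median of all genes scaled to 0, all 5 lay below 0. With the trend in length and GC content removed, 3 of 5 did: Gabarap stood at -0.01, Gabarapl1 at -0.09 and Map1lc3b at -0.26, whereas Gabarapl2 stood at 0.04. That removal kept the median of all genes at 0.10. Gabarap, Gabarapl1, Gabarapl2 and Map1lc3b all lay under it, and Map1lc3a, at 0.21, lay over it.

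The conjugation machinery, which prepares ATG8 proteins and joins them to lipid, showed no common direction as deposited, with 3 of 7 genes past the floor above 0 and 4 below. Of all genes past the floor 63.2% lay above 0. With the median of all genes scaled to 0, all 7 lay below 0, as did 4519 of all 9039 genes. Some were close to 0, such as Atg16l1 at -0.01 and Atg12 at -0.08. Atg3, the enzyme that transfers ATG8 to lipid, stood at 33.8 FPKM in the knockout-labelled library and 40.1 FPKM in wild type (log2 ratio -0.24, counting interval -0.34 to -0.16). Atg5, which forms the conjugate that directs lipidation, stood at 21.98 and 24.2 FPKM (-0.13). Its partner Atg12 stood at 24.2 and 23.5 FPKM (0.04, counting interval -0.03 to 0.11). These 3 were the abundant genes of the group, and Atg3 had the lowest ratio of all 34 genes on the FPKM + 1 scale. With the trend in length and GC content removed and the median of all genes kept at 0.10, Atg3 stood at -0.04. Map1lc3b was then the lowest of the 28 past the floor at -0.26.

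Genes of the other conjugation steps had lower levels. Atg10, the enzyme that joins ATG12 to ATG5, stood at 3.41 FPKM in the knockout-labelled library and 4.08 FPKM in wild type (-0.20). Atg4b, the protease that trims ATG8 proteins, stood at 3.07 and 3.06 FPKM (0.00). Atg7, the activating enzyme of both conjugation arms, stood at 2.76 and 2.93 FPKM (-0.07). Counting intervals included 0 for these 3 and for Atg16l1, which brings the conjugate to the membrane.

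Atg16l1 stood at 1.27 FPKM in the knockout-labelled library and 1.18 FPKM in wild type (0.06). Its paralog Atg16l2 stood at 0.575 and 0.353 FPKM, under the floor. That gene overlaps Fchsd2 on the other strand (10.8 and 8.05 FPKM), and since no strand marking is described, reads of the pair could not be told apart. By transcript level Atg16l1 was scarce beside its partner gene. On FPKM, Atg5 exceeded it by 17.3-fold in the knockout-labelled library and 20.5-fold in wild type. Amounts of the proteins were not measured.

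The initiation kinase complex responds to nutrient and energy signals and starts membrane formation. Its levels ran from 0.550 to 10.6 FPKM in the knockout-labelled library and from 0.426 to 10.5 FPKM in wild type. Atg101 stood at 10.6 FPKM in the knockout-labelled library and 10.5 FPKM in wild type, with a log2 ratio of 0.02 that was -0.11 with equal upper quartiles. Atg13, the adaptor it stabilises, stood at 4.41 and 3.88 FPKM (0.15). Ulk2, a kinase subunit, stood at 2.59 and 1.96 FPKM (0.28, counting interval 0.18 to 0.62 on FPKM alone). Ulk1, the other kinase, stood at 1.03 and 0.536 FPKM, from about 144 and 76 fragments. Its ratio was 0.40 on the FPKM + 1 scale and 0.95 on FPKM alone, with an interval of 0.54 to 1.37. Rb1cc1 (FIP200), the scaffold of the complex, stood at 0.550 and 0.426 FPKM, with an interval of -0.04 to 0.79.

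The class III PI3-kinase complex, which places the lipid PI3P on the membrane, was also close between libraries. Its core was nearly equal: Becn1 stood at 4.89 FPKM in the knockout-labelled library and 4.78 FPKM in wild type (0.03), and the catalytic subunit gene Pik3c3 at 4.41 and 4.32 FPKM (0.02). Both lay at -0.09 with equal upper quartiles. The regulatory subunit gene Pik3r4 stood at 1.04 and 0.775 FPKM, under the floor on average. Atg14, which directs the complex to new autophagosomes, stood at 2.69 and 2.01 FPKM (0.30, counting interval 0.16 to 0.69). Uvrag, which directs it to endosomes, stood at 5.51 and 4.63 FPKM (0.21, interval 0.10 to 0.40, or -0.02 to 0.52 with the median transcript length). Becn1 was 1.82-fold over Atg14 in the knockout-labelled library and 2.38-fold over it in wild type, and 0.886-fold and 1.03-fold over Uvrag.

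Rubcn, an inhibitor of the UVRAG form that also takes part in LC3-associated phagocytosis, stood at 0.591 FPKM in the knockout-labelled library and 0.394 FPKM in wild type, from about 84 and 57 fragments. Rubcn overlaps Fyttd1 on the other strand (1.36 and 2.78 FPKM), so its value is uncertain. Of the 19 members that overlap another annotated gene, Rubcn and Atg16l2 were the 2 whose partner reached 1 FPKM in a library. The partner of Sqstm1, Mrnip, stood at 0.207 and 0.339 FPKM.

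Genes that supply lipid to the membrane or read PI3P on it were higher in the knockout-labelled library in 4 of 5 cases. Past the floor, 3 of 4 were higher. Of all genes past the floor 63.2% lay above 0, and of those of 3000 bases or more 79.8% did. Atg9a encodes a scramblase carried on seed vesicles. It stood at 1.31 FPKM in the knockout-labelled library and 0.711 FPKM in wild type, from about 148 and 82 fragments. Its log2 ratio was 0.44, with an interval of 0.48 to 1.28 on FPKM alone. Wipi2, the PI3P reader that recruits ATG16L1, stood at 2.48 and 1.90 FPKM (0.26), and Wipi1 at 1.20 and 0.878 FPKM (0.23). The interval of Wipi1 was 0.01 to 0.88, or -0.16 to 1.10 with the median transcript length. The lipid transfer protein gene Atg2a stood at 0.845 and 0.641 FPKM, under the floor. The exception was the most abundant of them, Vmp1, a scramblase of the endoplasmic reticulum, at 14.5 and 15.2 FPKM (-0.06, interval -0.18 to 0.06), which turned to 0.03 with equal FPKM totals.

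**Figure D2:**
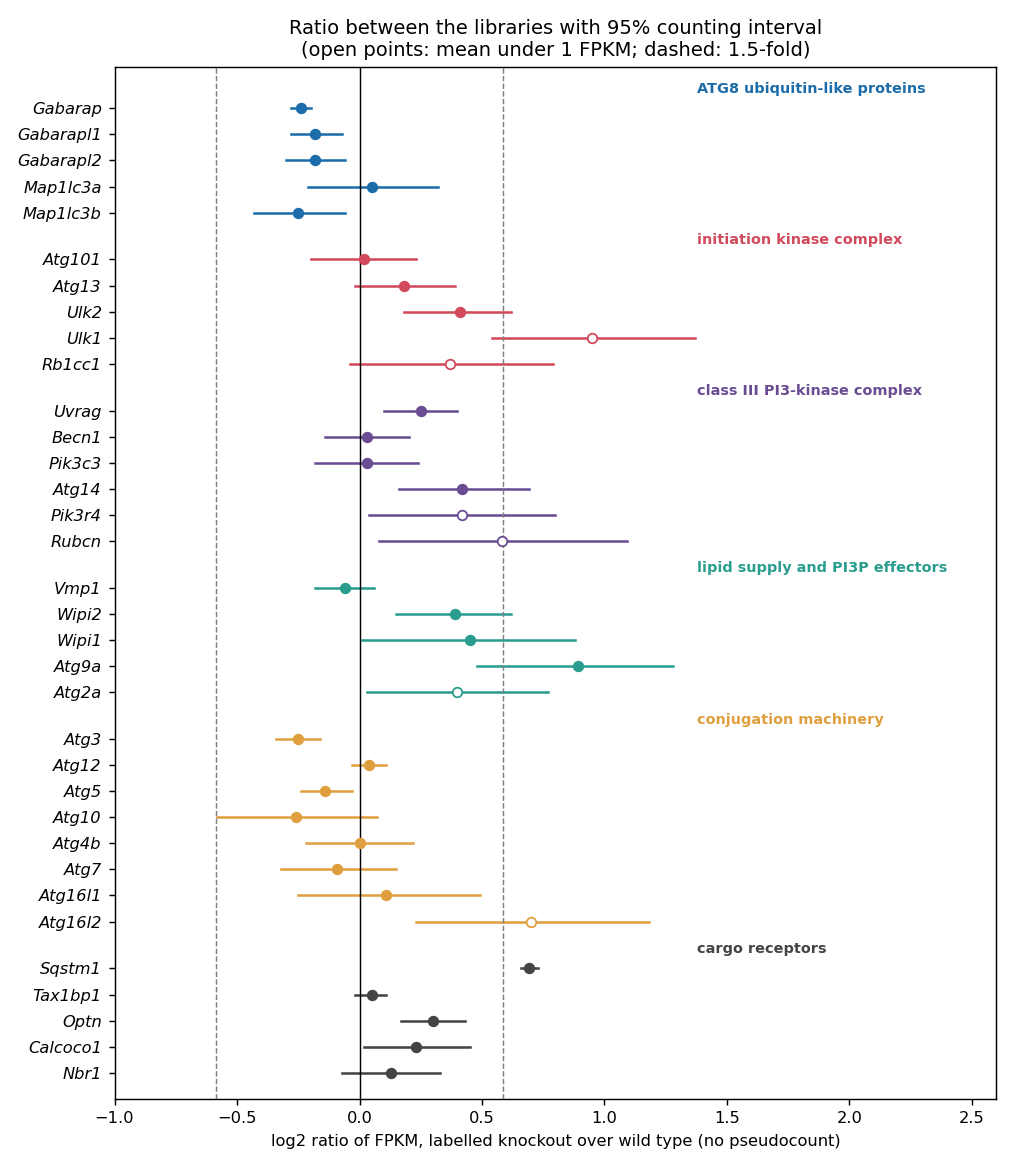
Log2 ratio of FPKM without a pseudocount, knockout-labelled library over wild type, for each gene (points) with its 95% counting interval (lines), which holds no spread between animals. Sqstm1 at 0.69 has a narrow interval past the dashed 1.5-fold line, whereas Ulk1 (0.95), Atg9a (0.89) and Atg16l2 (0.70) have wide ones; open points mark genes with a mean under 1 FPKM.

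The ratios of the members went with transcript length, as did those of all genes. Over the 28 members past the floor, Spearman's rho between the longest annotated transcript and the log2 ratio was 0.46, and over the 9017 genes with a length it was also 0.46. Both are correlations across genes of the same pair of libraries and carry no test. Of the 12 members under 3000 bases, 5 lay above 0 and 7 below, with a median of -0.09, against -0.03 for all genes of that length. Of all genes of that length 45.1% lay above 0. Of the 16 members of 3000 bases or more, 14 lay above 0 and 2 below, with a median of 0.08, against 0.20 for all such genes. Of all such genes 79.8% lay above 0. Sqstm1, at 2673 bases, belongs, when genes are split by length into 10 equal groups, to that of 2661 to 3093 bases, whose median was 0.10. Gabarap and Gabarapl2 belong to the group of 1200 to 1734 bases, with a median of -0.09. The part of length in the ratios of single members was not tested.

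**Figure D3:**
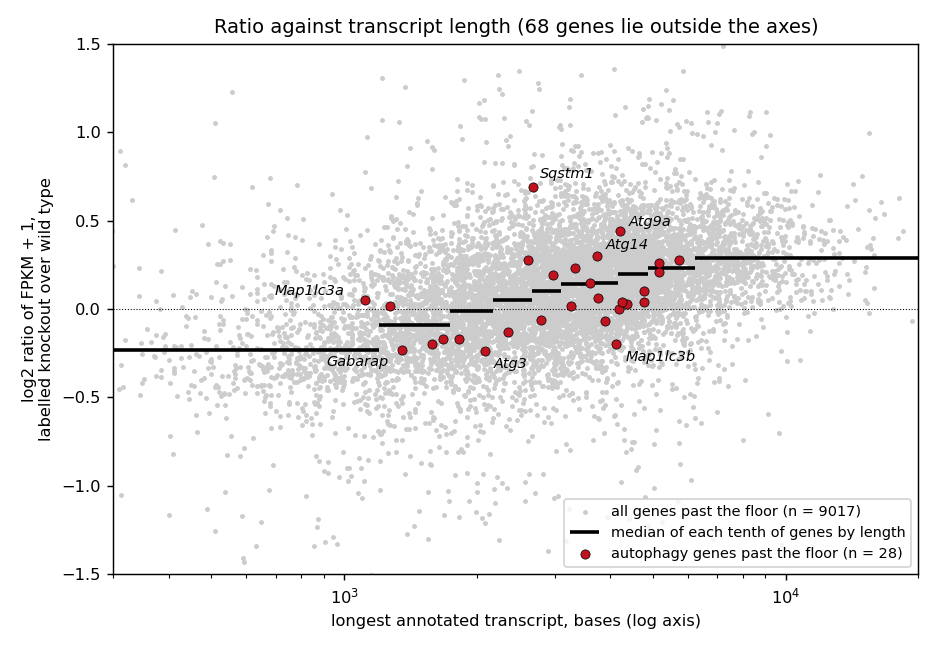
Log2 ratio of FPKM + 1 against the longest annotated transcript (log axis) for the 9017 genes past the floor with a known length (grey) and the 28 autophagy genes past it (red); black bars are the medians of 10 equal groups of genes by length, from -0.23 in the shortest to 0.29 in the longest. Sqstm1 (0.69) lies over the bar of its length group (0.10), and Atg3 (-0.24) under that of its own.

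Related lists, made up of genes of the same pathway outside the 34, also held no gene 2-fold apart on the FPKM + 1 scale. Of all genes past the floor 1.88% were that far apart. On FPKM alone Epg5, described below, passed 2-fold, as did some genes under the floor. Of 15 other core autophagy genes, 12 passed the floor, with a median of 0.23, 11 above 0 and 1 below. On the FPKM + 1 scale 1 was 1.5-fold higher. Over all genes past the floor the median was 0.10, 63.2% lay above 0 and 4.70% were 1.5-fold higher. Ambra1, a regulator of the beclin complex, stood at 2.96 FPKM in the knockout-labelled library and 1.57 FPKM in wild type (0.62). Zfyve1, whose protein marks the sites where autophagosomes form, stood at 6.38 and 3.99 FPKM (0.57), Trp53inp2 at 8.57 and 5.58 FPKM (0.54) and Tmem41b, a scramblase that acts with VMP1, at 2.78 and 1.84 FPKM (0.41). The gene below 0, Irgm1, an interferon-induced GTPase, was the most abundant of the list, at 145.6 and 185.4 FPKM (-0.35), and the summed FPKM of the list was lower in the knockout-labelled library (209.7 and 236.8 FPKM). Irgm1 was named after its values were seen. With the median of all genes scaled to 0, 9 of the 12 lay above 0. On FPKM alone Zfyve1, Trp53inp2 and Tmem41b also passed 1.5-fold, with counting intervals of 0.51 to 0.84, 0.47 to 0.77 and 0.32 to 0.86. With the trend in length and GC content removed, Ambra1 stood at 0.45, Zfyve1 at 0.47, Trp53inp2 at 0.46, Tmem41b at 0.45 and Irgm1 at -0.37.

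Selective receptors and adaptors outside the 34 went both ways. Of 17, 14 passed the floor, 7 above 0 and 7 below, with a median of 0.02 and 0 genes 1.5-fold apart on the FPKM + 1 scale. Of all genes past the floor 63.2% lay above 0 and 7.50% were 1.5-fold apart. With the median of all genes scaled to 0, 4 lay above 0 and 10 below. Tollip, an adaptor that binds ubiquitin and ATG8 proteins, stood at 19.7 FPKM in the knockout-labelled library and 15.7 FPKM in wild type (0.31). Wdfy3, a scaffold for aggregate clearance that works with Sqstm1, stood at 2.04 and 1.52 FPKM (0.27). The receptor gene for the endoplasmic reticulum Tex264 stood at 7.63 and 9.36 FPKM (-0.26). The mitophagy receptor gene Bnip3 stood at 3.60 and 4.32 FPKM (-0.21, counting interval -0.56 to 0.04). With the trend in length and GC content removed, Tollip stood at 0.26, Wdfy3 at 0.07, Tex264 at -0.29 and Bnip3 at -0.01. Calcoco2 was listed at 0 in both libraries.

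Genes for fusion of the autophagosome with the lysosome had a median of 0.13 over 14 genes, all past the floor, with 11 above 0 and 3 below. Over all genes past the floor the median was 0.10 and 63.2% lay above 0. Plekhm1 encodes an adaptor between RAB7, ATG8 proteins and the tethering complex HOPS. It stood at 3.77 FPKM in the knockout-labelled library and 2.00 FPKM in wild type (0.67). On the FPKM + 1 scale it was the 1 gene that was 1.5-fold higher, against 4.70% of all genes past the floor. Epg5, another tether, stood at 1.37 and 0.663 FPKM (0.51), from about 355 and 175 fragments. On FPKM alone Epg5 also passed 1.5-fold, with a counting interval of 0.78 to 1.31. The HOPS subunit gene Vps11 stood at 13.4 and 10.2 FPKM (0.36) and Vps18 at 2.93 and 2.16 FPKM (0.32). With the median of all genes scaled to 0, 8 of the 14 lay above 0. With the trend in length and GC content removed, Plekhm1 stood at 0.45, Epg5 at 0.33, Vps11 at 0.29 and Vps18 at 0.15.

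Upstream regulators held differences in both directions. Of 30, 23 passed the floor, with a median of 0.12, 13 above 0 and 10 below, where 63.2% of all genes lay above 0. With the median of all genes scaled to 0, 11 lay above 0 and 12 below. At 1.5-fold on the FPKM + 1 scale, 2 were higher and 1 was lower, where 4.70% and 2.80% of all genes were. Sesn2, a leucine sensor and stress gene that restrains mTORC1 and is known to bind SQSTM1, stood at 10.5 FPKM in the knockout-labelled library and 6.03 FPKM in wild type (0.71). Ddit4, another stress-induced inhibitor of mTORC1, stood at 5.67 and 3.40 FPKM (0.60). Sesn3, a paralog of Sesn2, went the other way, at 2.28 and 3.95 FPKM (-0.60), as did Lamtor3, a subunit of the lysosomal Ragulator complex, at 9.35 and 14.0 FPKM (-0.54). With the trend in length and GC content removed, Sesn2 stood at 0.55, Ddit4 at 0.59, Sesn3 at -0.74 and Lamtor3 at -0.47.

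Known regulators of Sqstm1 transcription are in this list. Nfe2l2, which encodes NRF2, stood at 79.6 FPKM in the knockout-labelled library and 73.4 FPKM in wild type (0.12), and Keap1, its inhibitor and a binding partner of Sqstm1, at 4.96 and 5.38 FPKM (-0.10). Of the TFEB family, Mitf stood at 10.9 and 8.52 FPKM (0.32), Tfe3 at 2.23 and 1.54 FPKM (0.35) and Tfeb at 0.583 and 0.370 FPKM, under the floor and with a counting interval of -0.13 to 1.45. These 5 were named after their values were seen, from the list of regulators. With the trend in length and GC content removed, Nfe2l2 stood at 0.17, Keap1 at -0.26, Mitf at 0.28 and Tfe3 at 0.14.

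**Figure D4:**
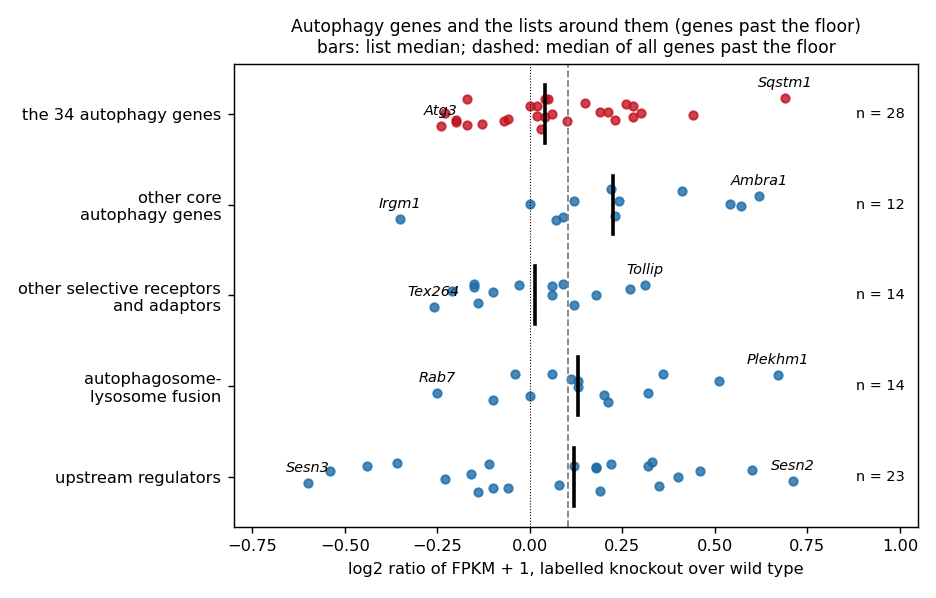
Log2 ratio of FPKM + 1 for each gene past the floor in the autophagy list (red) and in 4 related lists (blue), with vertical offsets for legibility only; bars are list medians and the dashed line is the median of all genes, 0.10. Sqstm1 (0.69), Plekhm1 (0.67) and Sesn2 (0.71) lie at the right edge of their lists and Sesn3 (-0.60) at the left.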

How the data were processed

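Per the file headers, the authors deposited 1 FPKM value per Ensembl gene and library. Tools listed in the submitters' processing notes are edgeR, StringTie 1.3.0 and HISAT2 2.0.4, with the builds GRCm38.p4 and mm10. Their roles and the annotation release were not given in these sources. FPKM divides by length and library size, so a few abundant genes or unequal fragmentation move all others. Symbols, coordinates, lengths and GC content came from GENCODE M21 (GRCm38), which matched 34267 IDs and not 478; values of 17 symbols with several IDs were summed.

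For genes with 1 transcript, the product of FPKM and length was a whole multiple of a fixed step (92.6% of 1518 genes under 20 fragments in the knockout-labelled library and 92.2% of 1456 in wild type, within 0.02 of a fragment). This gave fragment estimates and exact Clopper-Pearson 95% intervals of the ratio. They cover counting error only, as PCR copies are not independent molecules, and depend on the assumed length, the longest transcript.

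The log2 ratio used a pseudocount of 1, a floor of a mean of 1 FPKM and fixed folds of 2 and 1.5; with 1 library per group there was no test. Members and lists were chosen with earlier results of these data known. All members are named, and in each related list the 4 genes past the floor with the largest ratios in either direction; Kdm2b checks the labels. Alternatives were other pseudocounts, scalings, floors and thresholds, removal of the trend with length and GC content (20 bins each, overall median kept), protein-coding genes only and the median transcript length. Calculations were tested on simulated data (Python 3.11.15, numpy 2.4.6, pandas 2.3.3, scipy 1.17.1). Upstream sequences are from RefSeq (GRCm38.p6).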

Additional observations from a re-analysis of the deposited data

How the results depend on the processing

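No member was 2-fold higher or lower under any alternative run other than a threshold of 1.5-fold, where 1 was higher. The median log2 ratio of the members, 0.04 as reported, was 0.12 with equal FPKM totals, -0.09 with equal upper quartiles and -0.08 with the median of all genes scaled to 0, where the median of all genes was 0.18, -0.01 and 0.00. It was 0.02 at a floor of 5 FPKM, 0.08 with no floor, 0.06 with the length and GC trend removed and 0.03 with a pseudocount of 5. The median of all genes in these runs was 0.04, 0.04, 0.10 and 0.06. In the alternatives of pseudocount, scaling and trend that were run for each (6, or 5 for the 6 members under the floor, for which the trend was not removed), 16 members stayed above 0 and 5 below, and 13 changed sign in at least 1. Sqstm1 ranged from 0.55 to 0.78, Ulk1 from 0.12 to 0.83 and Atg9a from 0.14 to 0.80. With the median transcript length, the counting interval of 9 members changed between holding and excluding 0: Atg16l2, Atg2a, Atg5, Calcoco1, Pik3r4, Rubcn, Ulk1 (-0.20 to 2.36), Uvrag and Wipi1.

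Of all genes, 78 were 2-fold higher and 92 lower as reported. The higher genes numbered 42 with equal upper quartiles, 44 with the median scaled to 0, 174 with a pseudocount of 0.1, 14 with one of 5, 35 at a floor of 5 FPKM, 425 at 1.5-fold and 5 at 4-fold. The lower genes numbered 33 with a pseudocount of 5, 48 at a floor of 5 FPKM, 253 at 1.5-fold and 18 at 4-fold. No paired analysis was possible because the values come from 1 library per group and no test. Depth limits the 6 members with under 100 fragments in a library, the lowest with 57.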
